A study of Mus musculus with 12 samples.

Results

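The 7 genes described here encode transcription factors of pigment cells and of the iris epithelium: Mitf, Tfec, Tfeb and Tfe3, which form the MiT family, with Sox10, Otx2 and Pax6. They were taken by name, as every probe set that the platform annotation assigns to 1 of them alone, and that rule uses no measured value. This gave 14 of the 45037 probe sets on the array and 7 of 18193 named genes. Mitf had 2 probe sets, Sox10 had 3, Pax6 had 5 and each of the other genes had 1. After a filter on low mean values over all arrays, 12 of the 14 were tested. One probe set of Sox10 (1425369_a_at) and one of Pax6 (1425960_s_at) stayed below it and are given as values.

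The data are transcript levels of adult iris from 12 arrays, with 3 arrays per strain and 4 mouse strains, all at 60 days of age. C57BL/6J was the healthy strain. B6-Lystbg-J, called B6-Lyst here, carries the bg-J mutation of Lyst, a regulator of lysosome-related organelles. B6-(Cg)TyrC-2J, called B6-albino, carries the C-2J mutation of Tyr, the gene of tyrosinase, which makes melanin. B6.D2(Tryp1-Gpnmb-)/SJ, called B6-D2 congenic, carries the b allele of Tyrp1 (spelled Tryp1 in the labels) together with the R150X allele of Gpnmb, and so differs from C57BL/6J at more than 1 gene. The mutations are germline, so they were present in every cell type of the eye, and the strain names give all 3 mutant strains a B6 background. Each array held the pooled irides of 4 eyes from 2 mice, and the arrays of a strain are labelled as biological replicates. All levels below are the authors' deposited log2 values, in which a difference of 1 is a doubling. Levels of different probe sets cannot be set against each other.

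Factors of the MiT family bind short DNA elements built on an E-box as pairs, either of 2 identical members or of different ones. Mitf drives the genes of melanin synthesis and of the melanosome, Tfeb and Tfe3 drive lysosomal and autophagy genes and are held in the cytoplasm while mTORC1 is active, and Tfec is expressed in macrophages and in pigment epithelium. Sox10 is a neural crest factor of melanocytes and Schwann cells that activates Mitf. Otx2 and Pax6 are homeodomain factors of the optic cup, Otx2 in the pigment epithelium and Pax6 in the epithelium that forms the iris. An array measures their transcripts and not the amount or place of the proteins.

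Sequence before the start sites shows the elements in question, printed from RefSeq (build GRCm38.p6), 5′ to 3′ on the strand of the gene, with the E-box cores CATGTG and CACGTG (either strand) in capitals for the first 5 genes and the Otx2 core GGATTA in capitals for the last 2. These genes were chosen because they are a melanin target of Mitf (Tyr, Tyrp1, Dct), a target that holds an E-box core and whose transcript differed between strains (Gla, Acp5) or a member with an Otx2 core (Mitf, Otx2). Gpnmb and Cdk2, pigment targets that also differed between strains, and Atp6v0d2, a lysosomal target that did so, are not printed. They were not among the listed targets found with either core. The search held promoters for 14 of the 20 listed pigment targets and 24 of the 31 lysosomal ones.
Tyr: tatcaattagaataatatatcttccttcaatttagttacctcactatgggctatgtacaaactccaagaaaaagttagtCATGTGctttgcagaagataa
Tyrp1: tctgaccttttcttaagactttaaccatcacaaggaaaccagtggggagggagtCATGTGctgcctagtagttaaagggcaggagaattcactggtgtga
Dct: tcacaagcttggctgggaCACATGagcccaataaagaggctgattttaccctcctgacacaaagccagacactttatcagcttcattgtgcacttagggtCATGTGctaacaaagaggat
Gla: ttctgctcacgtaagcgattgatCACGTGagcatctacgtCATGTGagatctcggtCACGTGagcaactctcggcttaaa
Acp5: gaagtccagtgctCACATGacccaagggga
Mitf: gccataggtactGGATTAagcaggtctgct
Otx2: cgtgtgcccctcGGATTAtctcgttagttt

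The Tyr window (chr7:87493513-87493612, minus strand) holds CATGTG from 21 to 16 bases before the start, and the Tyrp1 window (chr4:80834113-80834212, plus strand) from 46 to 41 bases before it. The Dct window (chr14:118052377-118052496, minus strand) holds it 150 bases before the start and, on the opposite strand as CACATG, 232 bases before it. The Gla window (chrX:134601176-134601255, minus strand) holds 2 CACGTG cores, the first 227 bases before the start, with a CATGTG between them at 210. The Acp5 window (chr9:22130672-22130701, minus strand) belongs to 1 of 3 starts in the table and holds the core on the opposite strand. The windows of Mitf (chr6:97929686-97929715, plus strand, 1 of 3 starts) and Otx2 (chr14:48665303-48665332, minus strand, 1 of 4 starts) hold GGATTA 119 and 211 bases before the start. In windows of 300 bases around the start, CATGTG on either strand was in 14.2% of all 32851 promoters, in 8 of the 17 promoters of listed pigment targets (47.1%) and in 1 of the 15 promoters of the members (6.67%), for 6 of the 7 genes. CACGTG was in 7.15% of all promoters, in 13 of the 27 of listed lysosomal targets (48.1%) and in 0 of the 15 of the members. GGATTA was in 7.06% of all promoters and in 2 of the 15 of the members (13.3%). The target lists were compiled from genes known as targets, some of them by these elements, so their shares are no independent evidence, and a match of letters is a description and not a site of binding.

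The arrays carried the muscle and pigment transcripts of iris. Acta2, the actin of the sphincter and dilator muscles, read 13.21 to 13.95, and Tagln, a smooth muscle protein, read 10.69 to 12.62. Replicates of a strain correlated at 0.973 to 0.992 across probe sets, and the medians of the arrays lay between 6.05 and 6.14. C57BL/6J replicate 3 stood apart in the difference between 3' and 5' actin probe sets, a measure of RNA quality, with 4.30 against 1.84 to 2.72 elsewhere. The hybridization controls were lowest on the B6-Lyst arrays (9.67 to 9.76, against 9.99 or more elsewhere), so this and the strain cannot be told apart. Added poly-A control transcripts were higher on the C57BL/6J arrays (7.36 to 8.16) than on all others (4.94 to 5.95). A handling difference and the strain thus cannot be told apart in any comparison with C57BL/6J. By sample number, C57BL/6J stands with B6-Lyst, and B6-albino with B6-D2 congenic, in separate runs. The labels do not say what this split means. It cannot be told apart from strain in pairs that cross it, such as B6-Lyst against B6-albino.

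In these irides 1 member differed between strains by the test used for every probe set (limma, adjusted p under 0.05): Otx2 was lower in B6-Lyst than in B6-albino. No other tested probe set of the 7 genes passed it in any of the 6 pairs of strains. Among the 27022 probe sets tested, the share that passed was 2.53% for B6-Lyst against C57BL/6J, 0.348% for B6-albino against C57BL/6J, 0.0407% for B6-D2 congenic against C57BL/6J, 1.84% for B6-Lyst against B6-albino, 0.933% for B6-Lyst against B6-D2 congenic and 0.0851% for B6-albino against B6-D2 congenic. The counts of members were 0, 0, 0, 1, 0 and 0 of 12, which lies near these shares. At an unadjusted p under 0.05 the counts were 2, 4, 2, 4, 1 and 2 of 12, beside 17.4%, 19.4%, 17.8%, 19.1%, 9.7% and 8.49% of all probe sets. The arrays of the 2 strains did not overlap for 1, 1, 1, 4, 2 and 1 of 12 members, beside 22.8%, 23.5%, 18.1%, 30.2%, 17.2% and 14.2% of all probe sets. The test for any difference among the 4 strains passed for 0 of 12, beside 2.09% of all probe sets, and 3 of 12 had an unadjusted p under 0.05 in it, beside 22%.

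**Figure D1:**
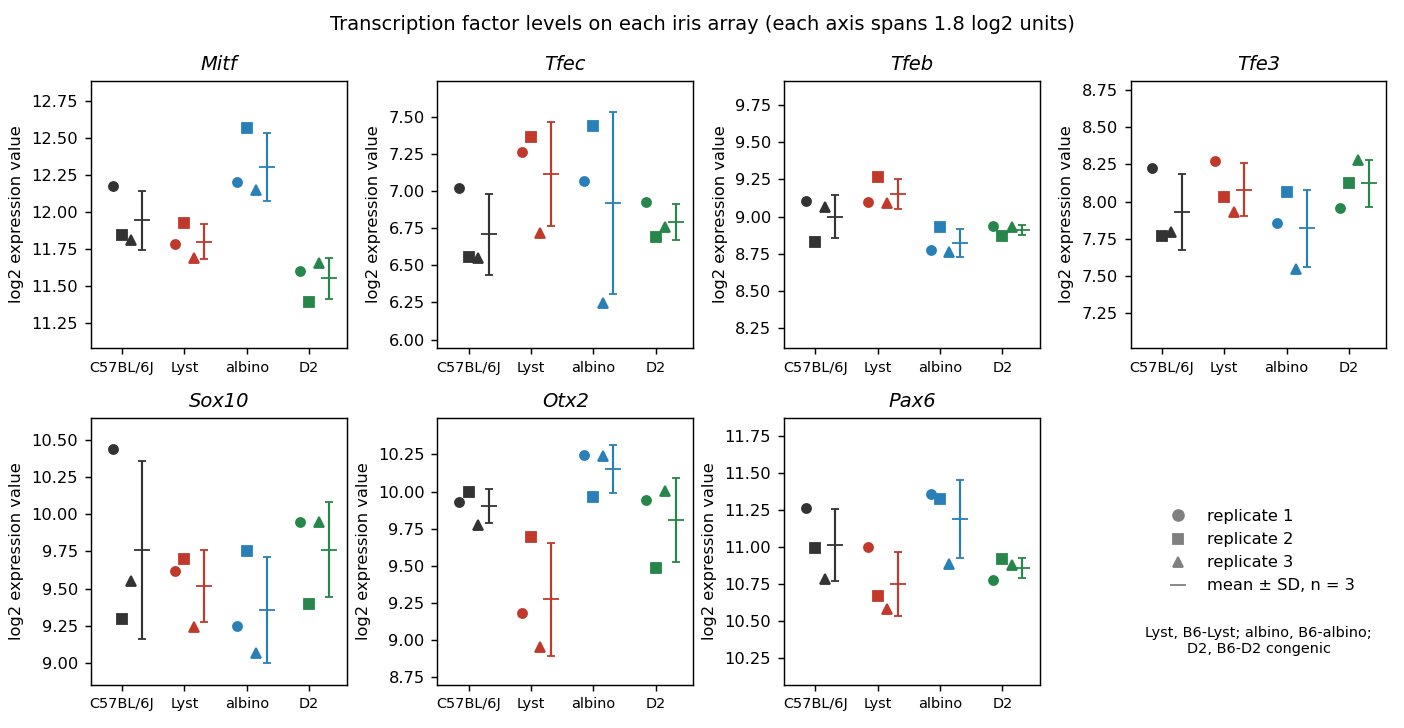
Log2 expression value (vertical axis) of 1 probe set for each of the 7 transcription factors on the 12 iris arrays, by strain (horizontal axis), with marker shape for the replicate and the mean ± SD of 3 arrays beside the points. The 3 B6-Lyst points of Otx2 lie below all B6-albino points, and the 3 B6-albino points of Mitf lie above all B6-D2 congenic points.

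**Figure D2:**
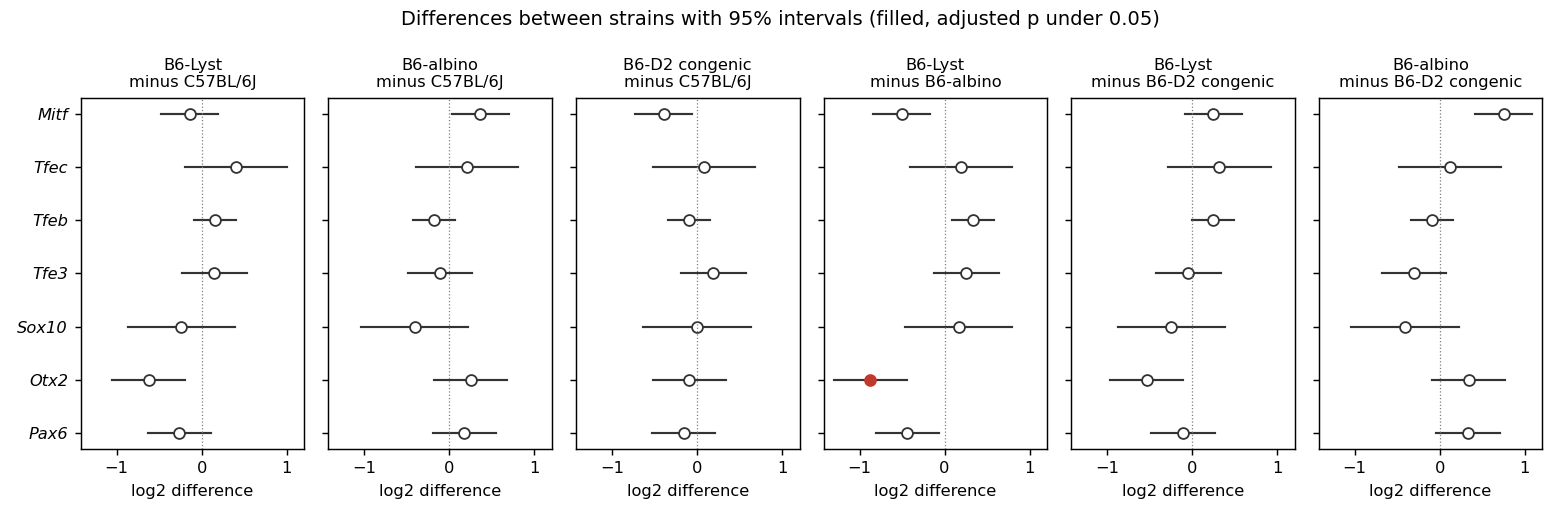
Difference in log2 value between strains (horizontal axis) with its 95% confidence interval for each transcription factor (rows), 1 panel for each of the 6 pairs of strains. The filled point is Otx2 in B6-Lyst minus B6-albino, the single difference with an adjusted p under 0.05.

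Otx2 read 9.93, 10.00 and 9.78 in C57BL/6J, 9.18, 9.69 and 8.95 in B6-Lyst, 10.24, 9.96 and 10.24 in B6-albino, and 9.94, 9.49 and 10.00 in B6-D2 congenic (probe set 1425926_a_at). The B6-Lyst arrays lay below every C57BL/6J and every B6-albino array, and overlapped with B6-D2 congenic through B6-Lyst replicate 2 and B6-D2 congenic replicate 2. The strains stood in the order B6-albino, C57BL/6J, B6-D2 congenic, B6-Lyst. Otx2 was 1.83-fold lower in B6-Lyst than in B6-albino, a log2 difference of -0.87 (SE 0.20, 95% interval -1.30 to -0.45, 3 arrays against 3, adjusted p = 0.0474). Probe sets called lower in that pair made up 0.574% of those tested. Against C57BL/6J the difference was -0.63 (interval -1.05 to -0.20, adjusted p = 0.118), and against B6-D2 congenic it was -0.53 (interval -0.96 to -0.11, adjusted p = 0.412). The 3 other strains did not pass the test against each other, with differences between -0.09 and 0.34. In bulk tissue such as this, fewer cells of a type and less RNA per cell cannot be told apart.

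The call for Otx2 lay close to the threshold. It passed in 8 of 24 alternative fits, among them 4 of the 12 that left out 1 array, and the adjusted p ran from 0.0154 (without B6-Lyst replicate 2) to 0.552. It was lost without C57BL/6J replicate 1 or 2, without B6-Lyst replicate 1 or 3, without B6-D2 congenic replicate 1 and without any 1 of the B6-albino arrays, with differences from -0.71 to -0.97. The difference kept its sign in all 24 fits. The difference from C57BL/6J passed in 1 fit, the one without B6-Lyst replicate 2 (-0.84, adjusted p = 0.0486).

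Markers of retinal pigment epithelium, a neighbouring tissue that also expresses Otx2, were mostly lower in B6-Lyst than in B6-albino by value. All 7 of the listed markers were tested (Rpe65, Lrat, Rdh5, Rgr, Best1, Ttr and Rlbp1). Their mean lay between 8.62 and 10.17 on the B6-albino arrays and between 8.23 and 8.86 on the B6-Lyst arrays. By value 6 of the 7 were lower in B6-Lyst (median difference -1.05), beside 7935 of all 13190 tested genes. In this pair 0 of 7 were called, beside 0.485% of all tested genes called lower and 1.8% called higher. Ttr, a carrier of thyroid hormone and retinol, read 12.37 to 13.25 in B6-albino and 11.49 to 12.36 in B6-Lyst. Rlbp1, a retinoid carrier of the visual cycle, read 9.68 to 10.45 in B6-albino and 9.35 to 9.92 in B6-Lyst. With the marker mean as a covariate, added after the data were seen, the Otx2 difference was -0.55 (adjusted p = 0.552). That fit called fewer probe sets of any kind in this pair, 162 against 498 in the main fit. The marker mean lay between 8.03 and 8.70 in C57BL/6J and between 9.08 and 9.43 in B6-D2 congenic. All 3 Otx2 values of C57BL/6J were above those of B6-Lyst, and the Otx2 values of B6-D2 congenic overlapped with those of B6-Lyst. Lens markers were also higher in B6-albino by value, and photoreceptor markers overlapped widely. The mean of 13 lens markers was 11.50 to 13.23 in B6-albino and 7.80 to 11.70 in B6-Lyst, and that of 9 photoreceptor markers was 7.42 to 9.93 and 7.38 to 9.56. The lens crystallins Cryab and Cryba1 read at least 13.87 and 13.80 in B6-albino, and at most 13.52 and 13.44 in B6-Lyst. The photoreceptor genes Sag and Gnat1 overlapped between these strains, with 9.79 to 12.33 and 9.23 to 11.88 in B6-albino, and 9.40 to 11.52 and 9.21 to 11.47 in B6-Lyst. The retinal pigment epithelium mean itself differed by value between B6-Lyst and B6-albino, so its covariate fit cannot separate tissue from strain. The part of these tissues in the Otx2 difference was not tested.

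Otx2os1, a noncoding gene transcribed beside Otx2 on the opposite strand, is no member and was looked at after the Otx2 values were seen. It read 6.53, 7.60 and 7.47 in C57BL/6J, 5.61, 6.46 and 6.39 in B6-Lyst, 7.23, 6.88 and 8.15 in B6-albino, and 6.92, 6.15 and 6.77 in B6-D2 congenic. As with Otx2, the B6-Lyst arrays lay below all C57BL/6J and all B6-albino arrays. The differences were -1.05 (interval -1.87 to -0.23, adjusted p = 0.172) against C57BL/6J and -1.27 (interval -2.09 to -0.45, adjusted p = 0.111) against B6-albino, and neither passed. Both probe sets were read from the same arrays, so they do not stand as separate samples.

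**Figure D3:**
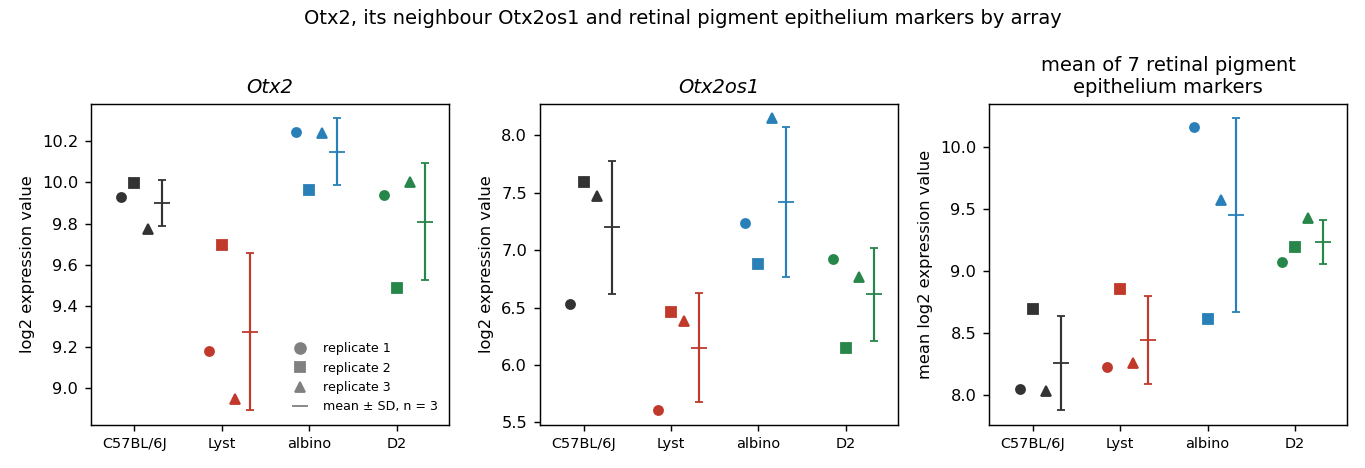
Log2 expression value of Otx2 (left) and of its neighbour Otx2os1 (centre), and the mean log2 value of 7 markers of retinal pigment epithelium (right), on each array by strain with the mean ± SD of 3 arrays. Both genes have their lowest strain mean in B6-Lyst. The markers span 8.03 to 8.70 in C57BL/6J, 8.23 to 8.86 in B6-Lyst, 8.62 to 10.17 in B6-albino and 9.08 to 9.43 in B6-D2 congenic.

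Mitf, the factor that activates melanin genes, showed its widest contrast between B6-albino and B6-D2 congenic. The main probe set (1455214_at) read 12.17, 11.84 and 11.81 in C57BL/6J, 11.79, 11.93 and 11.69 in B6-Lyst, 12.20, 12.57 and 12.15 in B6-albino, and 11.60, 11.40 and 11.66 in B6-D2 congenic. All B6-D2 congenic arrays lay below every array of the other 3 strains, and the B6-albino arrays overlapped only with C57BL/6J. B6-albino exceeded B6-D2 congenic by 0.75 (SE 0.15, interval 0.42 to 1.09, 1.69-fold), which did not pass the adjustment over all probe sets (adjusted p = 0.174). The differences were -0.51 for B6-Lyst against B6-albino (adjusted p = 0.116), 0.36 for B6-albino against C57BL/6J (adjusted p = 0.224), -0.39 for B6-D2 congenic against C57BL/6J (adjusted p = 0.228), 0.25 for B6-Lyst against B6-D2 congenic (adjusted p = 0.631) and -0.14 for B6-Lyst against C57BL/6J (adjusted p = 0.685). No pair of neighbours in the order B6-albino, C57BL/6J, B6-Lyst, B6-D2 congenic passed the test. The test for any strain difference gave an adjusted p of 0.0807 for this probe set, and it passed under quantile normalization, under scaling to the 75th percentile and with the actin measure of RNA quality as a covariate.

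The second Mitf probe set (1422025_at) kept B6-albino on top and ordered the rest differently. It read 6.01, 6.38 and 6.86 in C57BL/6J, 6.56, 6.87 and 6.83 in B6-Lyst, 6.77, 7.46 and 7.51 in B6-albino, and 6.26, 6.92 and 6.49 in B6-D2 congenic. B6-albino was above B6-D2 congenic by 0.69 (interval 0.14 to 1.25, adjusted p = 0.482) and above C57BL/6J by 0.83 (interval 0.28 to 1.39, adjusted p = 0.124), with overlapping arrays in both cases. C57BL/6J stood second with the first probe set and last with the second, so the 2 probe sets disagree on the place of C57BL/6J. With the mean of both probe sets, the sign of B6-Lyst against C57BL/6J changed from -0.14 to 0.10.

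The other MiT factors did not pass the test in any pair. Tfeb, a driver of lysosomal genes, read 9.10, 8.83 and 9.06 in C57BL/6J, 9.10, 9.27 and 9.09 in B6-Lyst, 8.77, 8.93 and 8.76 in B6-albino, and 8.94, 8.87 and 8.93 in B6-D2 congenic. The B6-Lyst arrays lay above all B6-albino and all B6-D2 congenic arrays. The difference was 0.33 against B6-albino (interval 0.09 to 0.58, 1.26-fold, adjusted p = 0.15) and 0.24 against B6-D2 congenic (interval -0.01 to 0.49, adjusted p = 0.528). The intervals of the 6 Tfeb comparisons lay between -0.43 and 0.58, so changes as large as 2-fold in the mean transcript level lay outside them.

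Tfe3, which also drives lysosomal genes, read 8.22, 7.77 and 7.80 in C57BL/6J, 8.28, 8.03 and 7.93 in B6-Lyst, 7.86, 8.06 and 7.54 in B6-albino, and 7.96, 8.13 and 8.28 in B6-D2 congenic. Every pair of strains overlapped. Its widest difference was -0.30 for B6-albino against B6-D2 congenic (interval -0.68 to 0.08, adjusted p = 0.68). Tfec read 7.02, 6.56 and 6.55 in C57BL/6J, 7.27, 7.36 and 6.72 in B6-Lyst, 7.07, 7.44 and 6.24 in B6-albino, and 6.93, 6.69 and 6.76 in B6-D2 congenic. Its arrays overlapped in every pair, and the B6-albino replicates alone spanned the whole range of the other strains. B6-Lyst was above C57BL/6J by 0.41 (interval -0.20 to 1.01, adjusted p = 0.491). Macrophage markers stood apart in B6-Lyst, while its Tfec values overlapped with all strains: the mean of 14 markers was 9.92 to 10.19 on the B6-Lyst arrays and 7.55 to 8.19 on all others.

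Sox10, the neural crest factor, did not differ between strains by the test, and the arrays of C57BL/6J stood far apart. The main probe set (1451689_a_at) read 10.44, 9.29 and 9.55 in C57BL/6J, 9.62, 9.70 and 9.24 in B6-Lyst, 9.24, 9.75 and 9.06 in B6-albino, and 9.94, 9.39 and 9.95 in B6-D2 congenic. All pairs of strains overlapped, and the widest differences were those of B6-albino against B6-D2 congenic (-0.41, interval -1.04 to 0.22, adjusted p = 0.748) and against C57BL/6J (-0.41, interval -1.04 to 0.22, adjusted p = 0.447). A second probe set (1424985_a_at) read 7.74, 7.34 and 7.53 in C57BL/6J and 7.20, 7.26 and 6.98 in B6-albino, without overlap (-0.39, interval -0.70 to -0.08, adjusted p = 0.169). It read 7.51, 7.49 and 7.29 in B6-Lyst and 7.32, 7.25 and 7.55 in B6-D2 congenic. The last, untested one (1425369_a_at) lay between 4.93 and 5.96, and both tested probe sets had their lowest strain mean in B6-albino. Schwann cell markers, from the other cells that express Sox10, had the same high array: the mean of 7 markers was 8.90 on C57BL/6J replicate 1 and 8.23 to 8.65 on the other arrays. S100b, a calcium-binding protein of Schwann cells and melanocytes, read 11.59 there and 10.26 to 10.99 elsewhere. Cnp, a myelin enzyme, read 9.86 there and was higher on B6-D2 congenic replicate 3 (9.97).

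Pax6, which directs eye and iris development, did not pass the test in any pair with its main probe set (1419271_at). This read 11.26, 10.99 and 10.78 in C57BL/6J, 11.00, 10.67 and 10.58 in B6-Lyst, 11.36, 11.32 and 10.88 in B6-albino, and 10.78, 10.92 and 10.88 in B6-D2 congenic, with overlap in every pair. B6-Lyst against B6-albino had the widest difference (-0.44, interval -0.81 to -0.07, adjusted p = 0.195). The 3 other tested Pax6 probe sets had their highest strain mean in C57BL/6J, whereas the main one had it in B6-albino.

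One of them (1437816_at) read 6.11, 7.0 and 7.49 in C57BL/6J, and between 6.09 and 6.45 on all 9 arrays of the mutant strains. C57BL/6J replicates 2 and 3 were thus above every mutant array, and C57BL/6J replicate 1 was among them. The mutant strains differed from C57BL/6J by -0.67 (B6-Lyst, adjusted p = 0.208), -0.72 (B6-albino, adjusted p = 0.167) and -0.60 (B6-D2 congenic, adjusted p = 0.263), and none passed. Without C57BL/6J replicate 1 the differences were -1.04, -1.10 and -0.98 and all 3 passed (adjusted p = 0.00565, 0.0428 and 0.0497). Of the 12 fits that left out 1 array, this was the only 1 in which any of them passed. Over these fits the differences were as small as -0.35, -0.41 and -0.29. The highest value, 7.49, was that of C57BL/6J replicate 3, the array that stood apart in the actin measure of RNA quality (4.30). No such gap was present in 1452526_a_at, which read 7.88, 7.54 and 6.64 in C57BL/6J and between 6.52 and 7.46 in the mutant strains, or in 1456342_at, which stayed between 6.67 and 7.01 on all arrays. The untested 1425960_s_at lay between 4.43 and 4.78. The higher poly-A controls of the C57BL/6J arrays (7.36 to 8.16 against 4.94 to 5.95) apply here too, so a handling difference and the strain cannot be told apart.

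**Figure D4:**
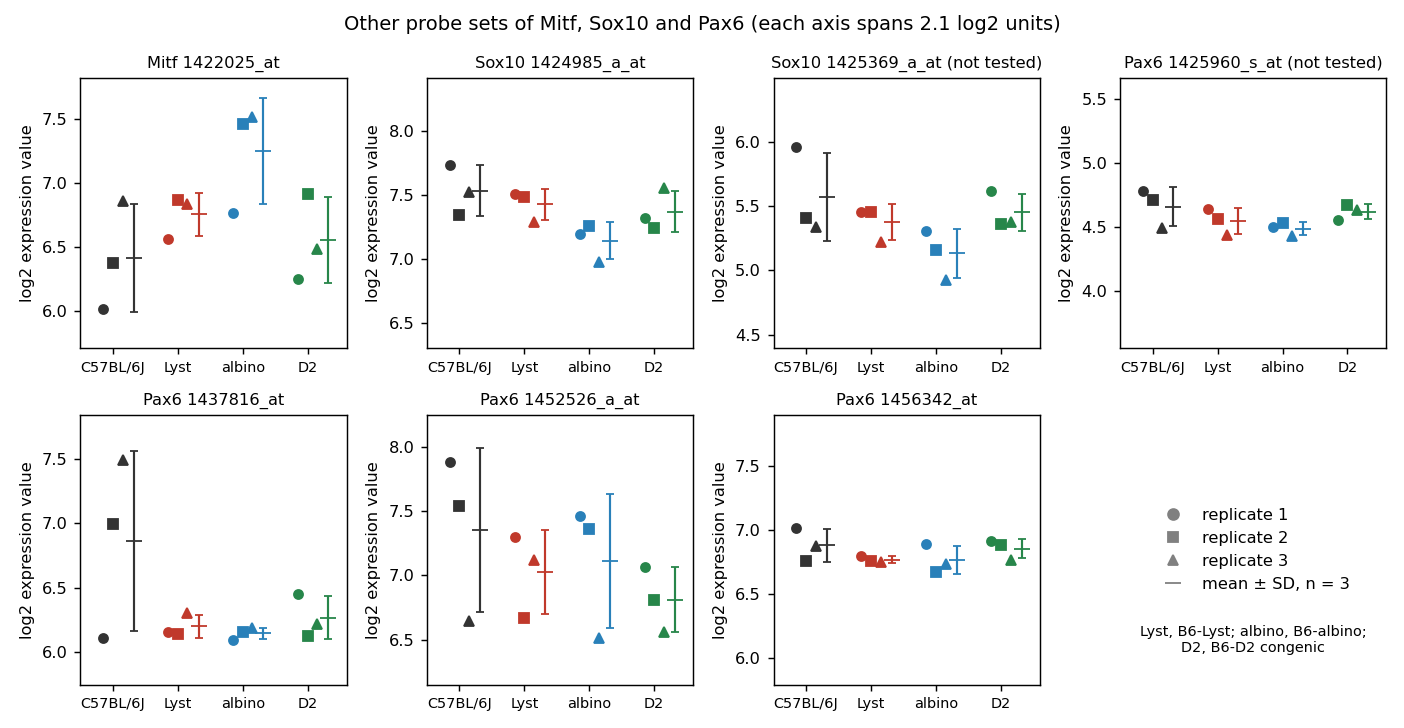
Log2 expression value of the 7 further probe sets of Mitf, Sox10 and Pax6 on the 12 arrays, by strain, with the mean ± SD of 3 arrays; 2 of them were too low to be tested. Pax6 1437816_at is high on 2 of the 3 C57BL/6J arrays and lies between 6.09 and 6.45 on all mutant arrays.

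Many of the lowest and highest values of the members fell on 2 arrays. B6-albino replicate 3 held the lowest of the 12 values for 6 of the 12 tested probe sets: those of Tfec, Tfeb and Tfe3, 2 of Sox10, and 1 of Pax6 (1452526_a_at). For tested probe sets at large this array held the lowest value in 9.7%. C57BL/6J replicate 1 held the highest value for 4 of the 12, 2 of Sox10 and 2 of Pax6, beside 14.3% of tested probe sets. The mean of 8 smooth muscle markers, from the sphincter and dilator of the iris, was also lowest on B6-albino replicate 3 (9.16) and highest on C57BL/6J replicate 1 (10.61), and the lens marker mean was highest on B6-albino replicate 3 (13.23). The share of iris tissue in each sample was not tested. Corneal markers were high on C57BL/6J replicate 1 (mean of 7 markers 9.90), B6-albino replicate 1 (9.10) and B6-D2 congenic replicate 2 (11.21), and between 7.13 and 8.11 elsewhere. Of the highest corneal markers, Aldh3a1 read 12.06, 11.69 and 13.27 on these arrays and 7.07 to 11.81 elsewhere, and Perp read 10.86, 10.73 and 12.40 and 10.34 to 10.87 elsewhere.

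For each member the 3 genes with the closest pattern were taken by Pearson correlation over the 12 arrays, among 13183 tested genes. The 7 members themselves were left out of this ranking. These values describe likeness only, since the best of so many genes is close to any pattern, and the 12 arrays share strain and dissection. Mitf was closest to Tbc1d16 (r = 0.937), a Rab GTPase-activating protein, Plppr4 (0.925) and Nr4a3 (0.909), a nuclear receptor. Otx2 was closest to Ift57 (0.946), a part of the ciliary transport machinery, Akap11 (0.934) and the kinesin Kif1b (0.928). Sox10 was closest to the retinoid receptor Rxra (0.975), Nod1 (0.938) and the cadherin Dchs1 (0.937). Pax6 was closest to the growth factor receptor Pdgfra (0.931), Med23 (0.904) and Fermt2 (0.903). Tfeb was closest to Dock11 (0.938), Mob3a (0.935) and P2rx4 (0.930), a receptor for ATP. Tfe3 was closest to Oxa1l (0.955), Bst2 (0.951) and Adprhl2 (0.944), and Tfec to Sccpdh (0.926), Cfap54 (0.898) and Hsd3b7 (0.895). None of these 21 genes was a listed melanin gene.

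Among the genes that Mitf is known to drive in pigment cells, only Cdk2 and Gpnmb were called in any pair. Of 19 tested pigment targets, 1 was called in B6-Lyst against C57BL/6J (Cdk2, lower), 0 in B6-albino against C57BL/6J, and 1 in B6-D2 congenic against C57BL/6J (Gpnmb, lower). Among all 13190 tested genes 1.03%, 0.167% and 0.00758% were called lower in these comparisons. The list's median differences were -0.08, -0.08 and 0.02, beside 0.00, 0.04 and 0.06 over all genes. Gpnmb, a melanosome glycoprotein that carries the R150X allele in the congenic strain, read 13.19, 12.57 and 11.95 in C57BL/6J and 9.40, 9.06 and 9.53 in B6-D2 congenic, a fall of 3.24 that matches the strain's label (log2 difference -3.24, adjusted p = 0.000807). Gpnmb was also higher in B6-Lyst (by 3.64) and in B6-albino (by 3.15) than in B6-D2 congenic, and it was the 1 listed gene called in each of these pairs, where 1.24% and 0.0758% of all tested genes were called higher and 0.0682% and 0.0152% lower.

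The melanin enzymes whose promoter windows are printed above did not pass in any pair. Tyr, the rate-limiting enzyme, read 12.46, 11.91 and 11.30 in C57BL/6J and 12.26, 12.48 and 11.70 in B6-albino (difference 0.26, interval -0.38 to 0.90). Between B6-albino and B6-D2 congenic, where Mitf differed most by value, the differences were 0.18 for Tyr (interval -0.46 to 0.82), 0.10 for Tyrp1 (interval -0.25 to 0.46) and 0.14 for Dct (interval -0.23 to 0.51). Cdk2, a cell cycle kinase, read 9.0, 8.49 and 9.05 in C57BL/6J and 8.29, 7.93 and 7.90 in B6-Lyst. It fell by 0.81 there (interval -1.20 to -0.41, adjusted p = 0.0416), and the call held in 7 of 23 alternatives and in 2 of the 12 that left out 1 array (without B6-albino replicate 2 or C57BL/6J replicate 2). Where no pigment target was called, the 2 with the smallest p were Cdk2 (-0.78, adjusted p = 0.0796) and Bcl2 (-0.43, adjusted p = 0.134) in B6-albino against C57BL/6J, and Rab38 (-0.31, adjusted p = 0.343) and Gpnmb (0.49, adjusted p = 0.371) in B6-Lyst against B6-albino.

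Of the lysosomal targets of Tfeb and Tfe3, 2 genes rose in B6-Lyst, while neither factor itself passed the test. Of 28 tested genes, Atp6v0d2 and Gla were called higher in B6-Lyst against each of the 3 other strains, and 0 were called in the 3 pairs without B6-Lyst. In the latter pairs 0.00758% to 0.167% of all tested genes were called in each direction. Atp6v0d2 passed the filter on mean values only through its B6-Lyst arrays. Among all tested genes 1.65%, 1.8% and 1.24% were called higher in B6-Lyst against C57BL/6J, B6-albino and B6-D2 congenic. The list's median differences in these pairs were 0.39, 0.23 and 0.07, beside 0.00, -0.07 and -0.08 over all genes. By value 24, 22 and 17 of 28 genes were higher, beside 6600, 5255 and 4576 of all 13190. Against C57BL/6J, 24 of 28 were also higher by value in B6-D2 congenic (median 0.17) and 17 in B6-albino (median 0.13), beside 7752 and 7396 of all genes. In B6-albino against B6-D2 congenic 7 of 28 were higher (median -0.10), beside 6043.

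Atp6v0d2, a subunit of the vacuolar proton pump in macrophages and osteoclasts, read 10.13, 10.35 and 10.00 in B6-Lyst and between 5.21 and 5.58 on the 9 other arrays, all of these under the filter value of 5.65. Against that value its B6-Lyst mean was at least 22.7-fold higher (adjusted p = 1.02e-09 against C57BL/6J). It passed the filter only through these B6-Lyst arrays, so its p-values describe the rise and are no independent support for it. Gla, the lysosomal alpha-galactosidase with the 3 E-box cores printed above, read 7.78, 7.80 and 7.14 in B6-Lyst, 5.69, 5.26 and 5.17 in C57BL/6J, 5.97, 6.07 and 5.73 in B6-albino, and 5.78, 5.82 and 6.15 in B6-D2 congenic. The B6-Lyst arrays lay above all others, by 1.65 against B6-albino (adjusted p = 0.000671) and 1.66 against B6-D2 congenic (adjusted p = 0.000747). The C57BL/6J mean was under the filter value, against which the rise was at least 3.78-fold (adjusted p = 5.86e-05). In the pairs without B6-Lyst, the 2 genes with the smallest p were Flcn (-0.32) and Gla in B6-albino against C57BL/6J, Gla and Atp6v0d1 (0.57) in B6-D2 congenic against C57BL/6J, and Atp6v0d2 and Neu1 (-0.54) in B6-albino against B6-D2 congenic, with adjusted p from 0.158 to 0.622. Gla was at least 1.2-fold higher in both strains by value, against the filter value, and no size is given for Atp6v0d2, whose means were under it in both strains.

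Of the osteoclast genes that Mitf and Tfe3 are known to activate, 7 were listed and 5 were tested, and 1 of these 5 gave a similar contrast. Genes called higher in B6-Lyst made up 1.65%, 1.8% and 1.24% of all tested genes against C57BL/6J, B6-albino and B6-D2 congenic. Acp5, the tartrate-resistant acid phosphatase of osteoclasts and macrophages, read 8.56, 8.68 and 8.07 in B6-Lyst and between 5.56 and 6.55 on the 9 other arrays, without overlap. It was higher in B6-Lyst by 2.35 against C57BL/6J (adjusted p = 2.54e-05), by 2.66 against B6-albino (adjusted p = 7.53e-06) and by 2.01 against B6-D2 congenic (adjusted p = 0.000107). Ctsk, the collagen-degrading cathepsin, was higher by 0.94 against C57BL/6J and did not pass (adjusted p = 0.0652). In the pairs without B6-Lyst, where none was called, the smallest p belonged to Acp5 (-0.31) and Dcstamp (0.16) in B6-albino against C57BL/6J, Acp5 (0.34) and Dcstamp (0.09) in B6-D2 congenic against C57BL/6J, and Acp5 (-0.64) and Ctsk (0.47) in B6-albino against B6-D2 congenic. The list's median difference against C57BL/6J was 0.36 for B6-Lyst, -0.04 for B6-albino and 0.00 for the B6-D2 congenic strain. Over all tested genes these medians were 0.00, 0.04 and 0.06.

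Macrophage markers rose in the same arrays as Atp6v0d2, Gla and Acp5. Of 14 tested markers, 12 were called higher in B6-Lyst than in C57BL/6J, and 9 and 8 were called higher than in B6-albino and B6-D2 congenic. The shares of all 13190 tested genes called higher in these pairs were 1.65%, 1.8% and 1.24%. Ctss, a cathepsin of macrophages, read 12.77 to 13.25 in B6-Lyst and 10.10 to 10.87 elsewhere. Csf1r, the receptor that maintains macrophages, read 11.62 to 11.68 in B6-Lyst, 10.95 to 11.05 in C57BL/6J, 11.21 to 11.77 in B6-albino and 11.29 to 11.42 in B6-D2 congenic. How far a larger number of macrophages accounts for the 3 target genes was not tested.

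**Figure D5:**
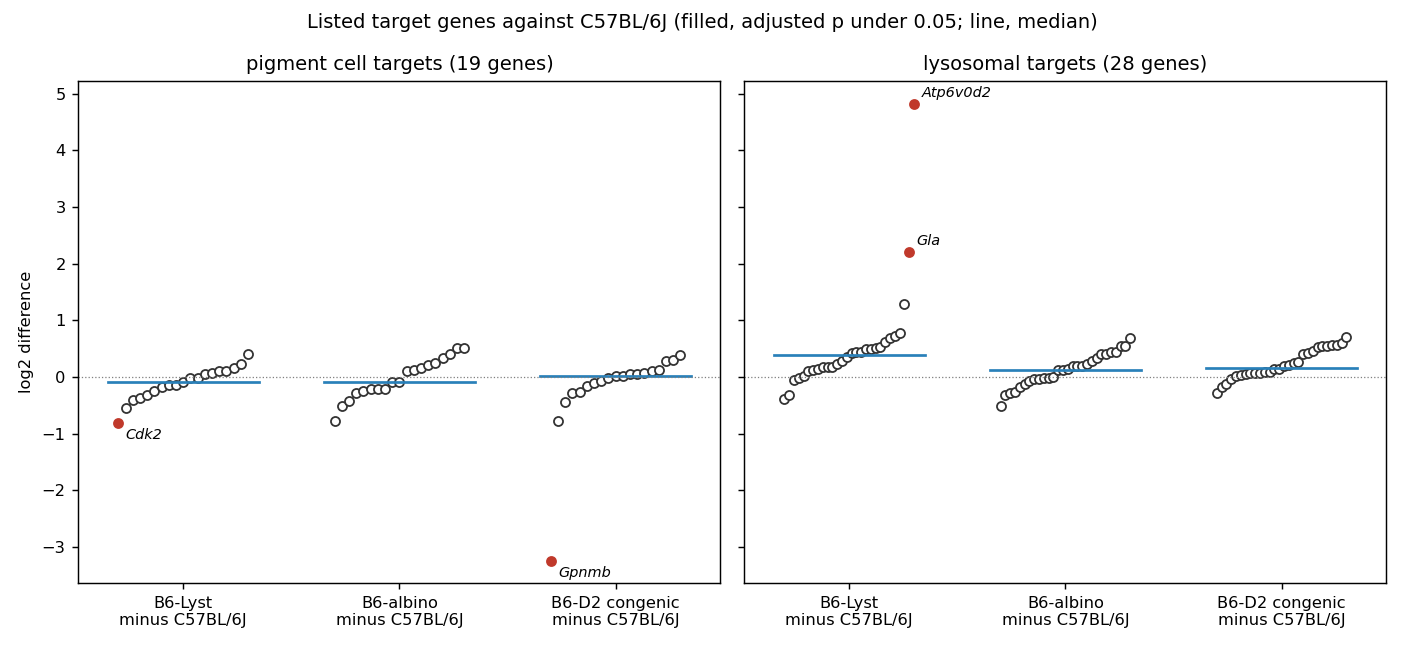
Difference in log2 value from C57BL/6J (vertical axis) for each tested gene of the pigment cell targets (left, 19 genes) and the lysosomal targets (right, 28 genes), in the 3 mutant strains, with each list's median as a line. Filled points passed the adjusted p of 0.05: Cdk2 and Gpnmb among the pigment targets, and Atp6v0d2 and Gla in B6-Lyst among the lysosomal targets.

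Genes that control MiT factors, such as the receptor Kit with its ligand Kitl, the kinases Gsk3b and Mtor, and the Rag GTPases with their partners Flcn, Fnip1 and Fnip2, showed 2 calls among 23 tested genes, Gsk3b lower in B6-Lyst against C57BL/6J and Fnip2 higher in B6-Lyst against B6-albino. Among all tested genes 1.03% were called lower in the first pair and 1.8% higher in the second. Gsk3b read 10.40, 10.37 and 10.36 in C57BL/6J and 9.76, 9.86 and 9.70 in B6-Lyst, where it fell by 0.60 (interval -0.89 to -0.32, adjusted p = 0.0364). That call held in 8 of 23 alternatives and was lost without any 1 of the C57BL/6J or B6-Lyst arrays, without B6-albino replicate 2 and without B6-D2 congenic replicate 1. Fnip2, a partner of folliculin at the lysosome, read 9.70, 9.62 and 9.30 in B6-Lyst and 8.73, 8.76 and 8.46 in B6-albino, a rise of 0.89 (interval 0.53 to 1.26, adjusted p = 0.0202) that held in 16 of 23 alternatives and was lost without B6-Lyst replicate 1 or 2 or B6-albino replicate 1 or 3. The list's median lay between -0.13 and 0.03 in the 6 pairs. In the pairs with 0 called, the smallest p belonged to Lef1 (-0.66, adjusted p = 0.0827) and Fnip2 (-0.64, adjusted p = 0.099) in B6-albino against C57BL/6J, Fnip1 (-0.51, adjusted p = 0.122) and Kitl (-0.57, adjusted p = 0.156) in B6-D2 congenic against C57BL/6J, Kitl (0.61, adjusted p = 0.196) and Pax3 (0.45, adjusted p = 0.351) in B6-Lyst against B6-D2 congenic, and Fnip2 (-0.61, adjusted p = 0.39) and Xpo1 (0.30, adjusted p = 0.416) in B6-albino against B6-D2 congenic.

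Among 24 other eye transcription factors 0 were called in any pair. Of all tested genes, 0.00758% to 1.8% were called in each direction, depending on the pair, so 0 of 24 lies near these shares. Pax3, which activates Mitf in melanocytes, was higher by value in B6-Lyst than in B6-albino (0.65, interval 0.32 to 0.98, adjusted p = 0.0554), and Sox9 was lower in B6-albino than in C57BL/6J (-0.75, interval -1.06 to -0.44, adjusted p = 0.0512) and higher in B6-Lyst than in B6-albino (0.61, adjusted p = 0.0563). Sox2, a factor of retina and lens, exceeded its C57BL/6J level by 1.78 in B6-Lyst (adjusted p = 0.225), by 3.08 in B6-albino (adjusted p = 0.0798) and by 2.46 in B6-D2 congenic (adjusted p = 0.153), with an SD of 1.37 within C57BL/6J. Of the remaining genes named by the rule, Hes1 was lower in B6-Lyst than in C57BL/6J (-0.52, adjusted p = 0.129), Pitx3 was higher in B6-D2 congenic than in C57BL/6J (0.82, adjusted p = 0.231), Pax3 (0.45) and Meis1 (-0.44) led B6-Lyst against B6-D2 congenic, and Sox9 (-0.43) and Foxe3 (-0.47) led B6-albino against B6-D2 congenic, none of them past the test. Of 6 tested inner retina markers 0 were called in any pair, beside the same shares of all genes, and the list's median lay between -0.19 and 0.35. Its highest genes, Slc6a9 and Rbpms, read 9.33 to 10.78 and 8.11 to 8.88 over all arrays.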

How the data were processed

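RNA of 12 iris samples was hybridised to Affymetrix mouse arrays after biotin labelling, per the labels' protocols. For every array the deposited table holds a log2 value of each probe set, a scale read from their range (2.98 to 14.29). How the authors corrected background and normalized the arrays is not given in the sources used here, and no further scaling was applied. Gene symbols came from the platform annotation and were updated through RefSeq names, and probe sets with several symbols or none stayed unnamed (34945 of 45037 had 1 symbol; 64 controls were left out). Those with a mean over the 12 arrays of at least the 40th percentile (5.65) were tested, 27022 in all. For list counts, the probe set with the highest mean stood for each gene (13190 genes).

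All 12 arrays entered 1 linear model with a mean for each strain in limma 3.58.1 (R 4.3.3), with an intensity trend in the prior, a two-sided moderated test for each of 6 pairs, and Benjamini-Hochberg adjustment over all 27022 probe sets within each pair. Intervals are 95%. On simulated data the fit was checked for recovery of known changes. Where a strain mean was under the filter value, the fold is a bound computed from that value (chosen with the data in view). With 3 arrays a strain, their number sets how precise every value is. The members, the lists and the rules were chosen with earlier results of these data known. The text names every member, the called genes of each target, regulator and eye factor list (the 2 with the smallest p where none was called), the 3 genes most correlated with each member and the 2 highest genes of each list of cell type markers. The alternatives were other filters, scalings and priors, covariates, a replicate block and leaving out each array.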

Additional observations from a re-analysis of the deposited data

How the results depend on the processing

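The count of called members for B6-Lyst against B6-albino went from 1 (Otx2) to 0 with no filter, with scaling to a common 75th percentile, with quantile normalization, with only the arrays of the 2 strains, without the 3 arrays with high Krt12, with the lens, photoreceptor and cornea means as covariates and with the retinal pigment epithelium mean as a covariate. It was 0 to 1 when 1 array was left out. For B6-Lyst against C57BL/6J it went from 0 to 1 (Pax6 1437816_at) without the 3 arrays with high Krt12, and was 0 to 1 when 1 array was left out (Otx2, adjusted p = 0.0486, without B6-Lyst replicate 2). For B6-albino and for B6-D2 congenic against C57BL/6J it was 0 to 1 when 1 array was left out, the 1 being Pax6 1437816_at without C57BL/6J replicate 1. The test for any strain difference went from 0 to 1 (Mitf 1455214_at) under 75th percentile scaling, quantile normalization and the actin covariate, and was 0 to 1 when 1 array was left out. The other 2 pairs stayed at 0 in every alternative. The causes were not tested.

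The labels give no pairing of samples by replicate number. Deviations of arrays with the same number correlated between -0.43 and 0.39, with 6 of 18 pairs over 0.1, which does not settle whether such arrays shared handling. With the replicate number as a block, 0 members were called for B6-Lyst against B6-albino. Of the uncalled member differences, the sign changed in at least 1 fit in some pairs of each of the 7 genes, most of them near 0, and Mitf in B6-albino against C57BL/6J fell from 0.36 to 0.07 under quantile normalization. Quantile normalization gave more called lysosomal targets: 4 against C57BL/6J (with Ctsd and Atp6v0d1) and 5 against B6-albino (with Ctsb, Ctsd and Psap), and it added Ctsk to Acp5. Atp6v0d2, Gla and Acp5 passed in every alternative that tested them. Gpnmb in B6-D2 congenic against C57BL/6J missed in 2 of 23 (adjusted p up to 0.0996).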
